A study of Danio rerio with 15 samples.

Results

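The 200 transcripts described here were chosen by their measured level in quiescent radial glia (qRGs) of the adult zebrafish telencephalon, and were then followed in radial glia of larvae with and without a functional notch3 gene. For each of the 30279 transcripts of the adult table, a gap was taken as the level in the lowest of 3 qRG libraries minus the level in the highest of 6 libraries of proliferating progenitors, in log2 CPM (counts per 1000000 counted reads, TMM scaling, prior count 2). Among the 10628 transcripts with a mean of at least 10 CPM in qRGs, called eligible transcripts below, the 200 with the largest gap were retained. The values of the adult table chose these members and are therefore given as a description without a test. The larval libraries did not enter this rule, although the members were chosen with earlier results of these data known.

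Adult cells came from 3-month-old her4:drfp;mcm5:egfp double transgenic fish of wild-type genotype, which carry 1 fluorescent reporter for her4 and 1 for mcm5. The pallium was sorted into RFP-positive qRGs (3 libraries), and into RFP/GFP-double positive activated radial glia (aRGs, 3 libraries) and GFP-positive activated neural progenitors (aNPs, 3 libraries). Larval cells were sorted by eGFP from the eyeless heads of 7 dpf fish that carried gfap:egfp and were either homozygous for notch3fh332 (notch3-/-, 3 libraries) or wild type (notch3+/+, 3 libraries). The larval sort was not restricted to the pallium, so gfap-expressing cells outside the pallium could be included. Heads and telencephali were pooled before sorting, and each library is 1 such pool. Unless said otherwise, the p-values below come from fits with the replicate number as a block. They measure how far the genotype difference varied between replicate numbers, not the whole spread between pools. The 6 adult columns that are not qRG are named activatedNPC and proliferative, which does not settle which of them are aRGs. They were therefore kept as a single group, aRG or aNP, and the gap treats both names alike.

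Radial glia line the ventricles of the brain, act as neural stem cells and, in adult fish, are mostly out of the cell cycle. Notch3 is a receptor that, once bound by a ligand on a neighbouring cell, is cleaved and releases an intracellular part that acts on transcription with the DNA-binding protein RBPJ. In the adult zebrafish pallium it is known to hold radial glia in quiescence. Her4 genes are typical targets of Notch signalling and label radial glia, whereas mcm5 encodes a part of the helicase that unwinds DNA before replication and labels cycling cells. The deposited tables identify transcripts only by Ensembl accession, and 0 of these matched the gene names at hand. The roles of the single members, the levels of cell type markers and the level of notch3 itself are therefore not given, and the cell types stand as labelled.

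Between 19555038 and 66966289 reads were counted per adult library and between 17776468 and 37653792 per larval library. Over 17452 transcripts, qRG libraries correlated with each other at 0.934 to 0.963 and with the other 6 columns at 0.757 to 0.917 (Pearson, log2 CPM). The column proliferative 2 stood apart within its name, with a mean correlation of 0.799 with the columns of the same name and of 0.854 with those named activatedNPC. TMM factors of the adult columns ranged between 0.679 and 2.002, the 3 highest (activatedNPC 3, proliferative 1 and proliferative 3) belonging to the 3 shallowest columns. All 200 members kept a gap above 0 when DESeq2 size factors were used in place of TMM.

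In the adult, the members were on average several fold higher in qRGs, as the rule required. Of the eligible transcripts, 776 (7.3%) had a gap above 0. The gap of the members ranged from 0.68 to 4.90 on the log2 scale (median 1.31), with 54 members at 2 or more and 137 at 1 or more. The last members of the list had gaps of 0.677 and 0.675, and the next transcripts outside the list had gaps of 0.670 and 0.669, so the boundary falls within a continuous range. The mean log2 difference between qRGs and the other 6 columns had a median of 2.61 (1.21 to 6.59) over the members.

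The median level over the 200 members was 43.2, 46.1 and 41.6 CPM in qRG libraries 1, 2 and 3, against 6.32 to 7.45 CPM in the 6 aRG or aNP columns. Members accounted for 2.70%, 2.89% and 2.64% of the counted reads in the 3 qRG libraries, against 0.277% to 0.986% in the other columns. A few transcripts made up a large part of the summed level, which was 38042, 33078 and 28774 CPM in qRG libraries 1, 2 and 3. The 4 members with the highest qRG level alone summed to 17659, 10287 and 10676 CPM in qRG libraries 1, 2 and 3, against 468 to 3811 CPM in the aRG or aNP columns. No member was without reads in all 6 aRG or aNP columns, and 1 stayed under 1 CPM in each of them. Each member thus had reads in at least 1 of the aRG or aNP columns, at lower levels than in qRGs. Which cells of the sorted pools these reads came from was not tested.

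**Figure D1:**
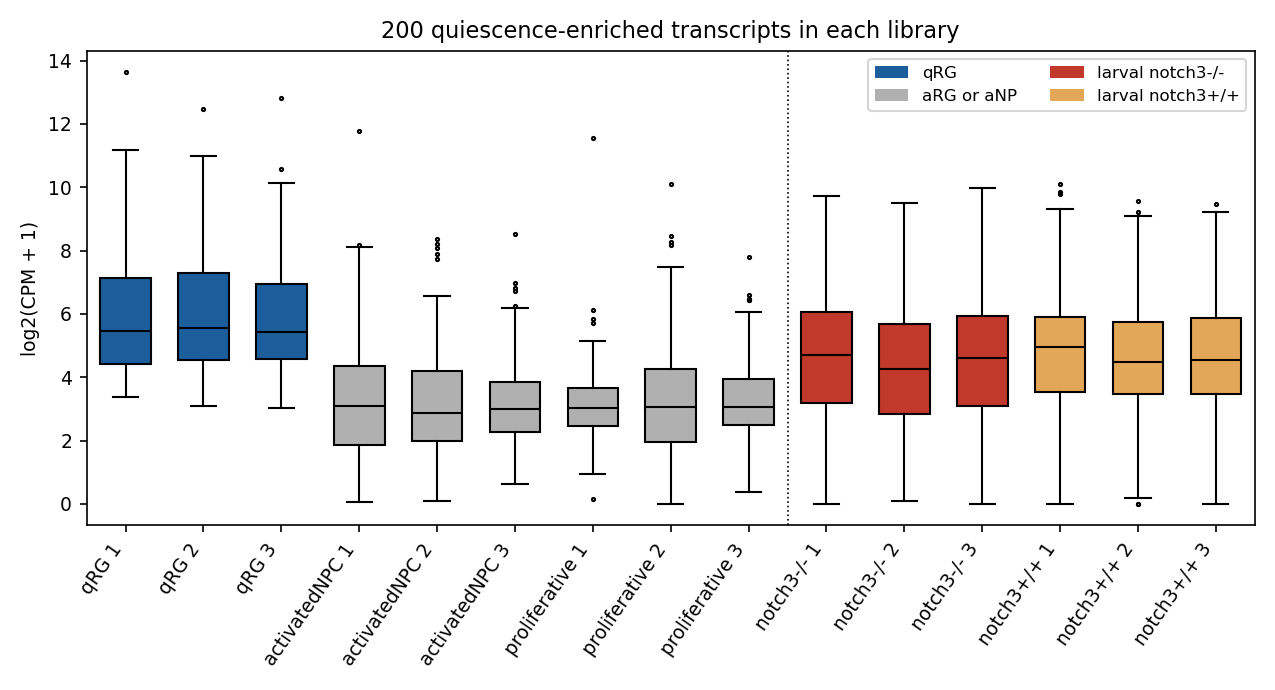
Level of the 200 members in each library, as log2(CPM + 1), with boxes from the lower to the upper quartile, a line at the median, whiskers to the furthest value within 1.5 box lengths and points beyond. The 9 adult libraries stand left of the dotted line and the 6 larval libraries right of it, each set scaled separately. The medians of the larval libraries, 18.1 to 29.99 CPM, lie between those of the qRG and of the aRG or aNP columns.

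The largest gap, 4.90, was that of ENSDART00000001253, a transcript of 4 exons and 990 bp on chromosome 10 (Zv9, 13199890 to 13203157, minus strand). It had 377, 556 and 377 CPM in qRG libraries 1, 2 and 3, against 4.09 to 12.6 CPM in the 6 aRG or aNP columns. In the larva it had 22.1, 17.8 and 15.1 CPM in notch3-/- replicates 1, 2 and 3, against 40.5, 22.4 and 38.6 CPM in notch3+/+ replicates 1, 2 and 3. The larval genotypes did not overlap, and both were far under the qRG level in CPM, which were scaled separately for adult and larva. The larval log2 fold change was -0.85 ± 0.24 (SE) and did not pass the threshold (edgeR adjusted p = 0.229). It passed when no filter on low counts was used (adjusted p = 0.0310) and in DESeq2 (adjusted p = 0.0475), and the adjusted p of the other alternatives lay between 0.0798 and 0.9999.

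The second-largest gap, 4.88, was that of ENSDART00000114915, a single-exon transcript of 1479 bp on chromosome 8 (Zv9, 42525620 to 42527098, minus strand). It had 89.5, 58.3 and 55.4 CPM in the qRG libraries, against 0.600 to 1.83 CPM in the aRG or aNP columns. In the larva it had 13.5, 10.5 and 10.9 CPM in notch3-/- replicates 1, 2 and 3, against 7.40, 4.56 and 9.73 CPM in notch3+/+ replicates 1, 2 and 3. Here, too, the genotypes did not overlap, with the notch3-/- libraries on top. The log2 fold change of 0.75 ± 0.32 (SE) did not pass the threshold (edgeR adjusted p = 0.569, and 0.439 to 0.9999 under the alternatives).

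Nearly all members were also present in larval radial glia, as were nearly all eligible transcripts. A mean of at least 1 CPM over the 6 larval libraries was reached by 194 of the 200 members, against 97.7% of the eligible transcripts. At least 0.5 CPM was reached by 197 members and at least 3 CPM by 183, against 98.9% and 93.7% of the eligible transcripts. The median larval level of the members was 22.6 CPM in notch3-/- and 24.6 CPM in notch3+/+ radial glia, and that of the eligible transcripts 30.5 CPM in notch3+/+ radial glia. Levels spanned a wide range, with 27 members at 100 CPM or more. The 3 members that could not be tested in the larva, because their counts were too low, were ENSDART00000122435, ENSDART00000111174 and ENSDART00000123992, named after their values had been seen. Their qRG means were 45.7, 25.9 and 31.1 CPM in that order, and none of their larval genotype means exceeded 0.733 CPM. The first 2 lie on chromosome 3 and the last on chromosome 21.

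Adult and larval tables were scaled separately and come from different sorts, reporters and read lengths, so their levels were set side by side without a test. On the log2(CPM + 1) scale, the qRG mean exceeded the larval notch3+/+ mean by a median of 1.13 over the members, against 0.29 over the eligible transcripts, and it was the higher of both means in 75.5% of members, against 61.5% of eligible transcripts. As the members were picked for a high qRG level, a difference in this direction is built into the list. The larval notch3+/+ mean nevertheless reached at least the lowest qRG library in 61 members. In 84 members it fell between the lowest qRG library and the highest aRG or aNP column, and in 55 it was at or under that column. Across the 200 members, the log2 level in qRGs and in notch3+/+ larvae correlated with Pearson's r = 0.573 and Spearman's rho = 0.538, close to 0.613 and 0.641 over the 10628 eligible transcripts. These values describe transcripts of the same libraries, which are not independent points.

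The comparison of notch3-/- with notch3+/+ radial glia asks whether transcripts higher in adult qRGs differ in level between these genotypes at 7 dpf. Of 197 members tested, 19 were lower and 2 higher in notch3-/- (edgeR quasi-likelihood test with replicate block, Benjamini-Hochberg adjusted p under 0.05 over 23056 transcripts). The 21 calls are 10.7% of the members, against 0.455% of all transcripts tested. By direction, 9.64% of the members were lower and 1.02% higher, against 0.373% and 0.0824% of all transcripts tested. The members are thus 22.1% of the 86 transcripts lower in notch3-/- and 10.5% of the 19 higher ones. Of the 86, 43 were eligible by their qRG level, of which 44.2% were members. Lower levels of a transcript in a sorted pool may come from fewer cells that express it or from less RNA per cell, and these cannot be told apart.

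The calls depended on how replicates were handled, and the block assumes that equal replicate numbers of both genotypes belong together. Without the replicate block, 1 member passed, ENSDART00000052556, and it was also the sole call among all transcripts. Without replicate 2, 12 members passed (9 lower), with 48 calls over all transcripts. Without replicate 1, 32 passed (29 lower), with 325 calls over all transcripts. The main fit made 105 such calls. DESeq2 called 37 members (29 lower, 8 higher), including all 21 of the edgeR calls, with 281 calls over all transcripts.

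The middle of the list stayed near 0. The median log2 fold change of the members was -0.05, against 0.00 over all transcripts tested, and the median of the 3 replicate pairs was 0.06, -0.20 and -0.04. The spread, in contrast, was wide, with quartiles of -0.74 and 0.31 against -0.28 and 0.31. A log2 fold change under -1 was found in 33 members (16.8%, against 6.71% of all transcripts tested) and one over 1 in 2 members (1.02%, against 7.25%). These shares are not matched for abundance. Of the 23056 transcripts tested, 10263 had a mean larval level under 4 CPM, with quartiles of -0.54 and 0.65, against 24 of the 197 members. At an unadjusted p under 0.05, 55 members (27.9%) were lower and 30 (15.2%) higher, against 4.48% and 3.4% of all transcripts tested. In a list drawn without the adult column proliferative 2, 48 were lower and 53 higher at this threshold. Each other list without 1 adult column held more lower than higher members. A longer list with all columns did not (68 lower and 73 higher of 391 tested). All 3 pairs went down in 65 members (33.0%, against 14.7%) and up in 49 (24.9%, against 14.1%). The 3 notch3-/- libraries lay under all 3 notch3+/+ libraries in 40 members (20.3%, against 3.9%) and above them in 17 (8.63%, against 3.82%). A pooled median close to 0 thus stood beside members that differed in both directions, with larger differences on the lower side.

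Many of the tested transcripts are scarcer than the members, and scarce transcripts vary more between replicates. Transcripts were therefore compared within bands of mean larval level. Between 16 and 64 CPM, 9 of 81 members were lower in notch3-/- (11.1%, against 0.729% of the 4662 transcripts of that band), with quartiles of the log2 fold change at -0.65 and 0.34, against -0.18 and 0.15. At 64 CPM and over, 6 of 42 members were lower (14.3%, against 0.760%) and 2 higher (4.76%, against 0.297%), with quartiles at -0.15 and 0.38, against -0.14 and 0.11. Between 4 and 16 CPM, 4 of 50 members were lower (8%, against 0.411%), with quartiles at -0.92 and 0.00, against -0.28 and 0.26. In this band the members spread further on the lower side alone, with a median of -0.21. At an unadjusted edgeR p under 0.05, 18 of the 50 were lower and 4 higher. Of all 5105 transcripts of that band, 318 were lower and 181 higher at this threshold. Under 4 CPM, 0 of 24 members passed in edgeR or in DESeq2, and edgeR called 9 of the 10263 transcripts of that band. There, 4 members were lower and 0 higher at an unadjusted edgeR p under 0.05, against 184 and 152 of the 10263. Within the 2 upper bands, the quartiles of the members spread further from 0 than those of all transcripts on each side, by a small margin for the lower quartile of the most abundant band. The members' medians there were 0.001 between 16 and 64 CPM and 0.08 at 64 CPM and over, against -0.01 and -0.02. At an unadjusted edgeR p under 0.05, 26 of the 81 were lower and 15 higher, against 250 and 208 of the 4662. At 64 CPM and over, 7 of the 42 were lower and 11 higher, against 280 and 244 of 3026.

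**Figure D2:**
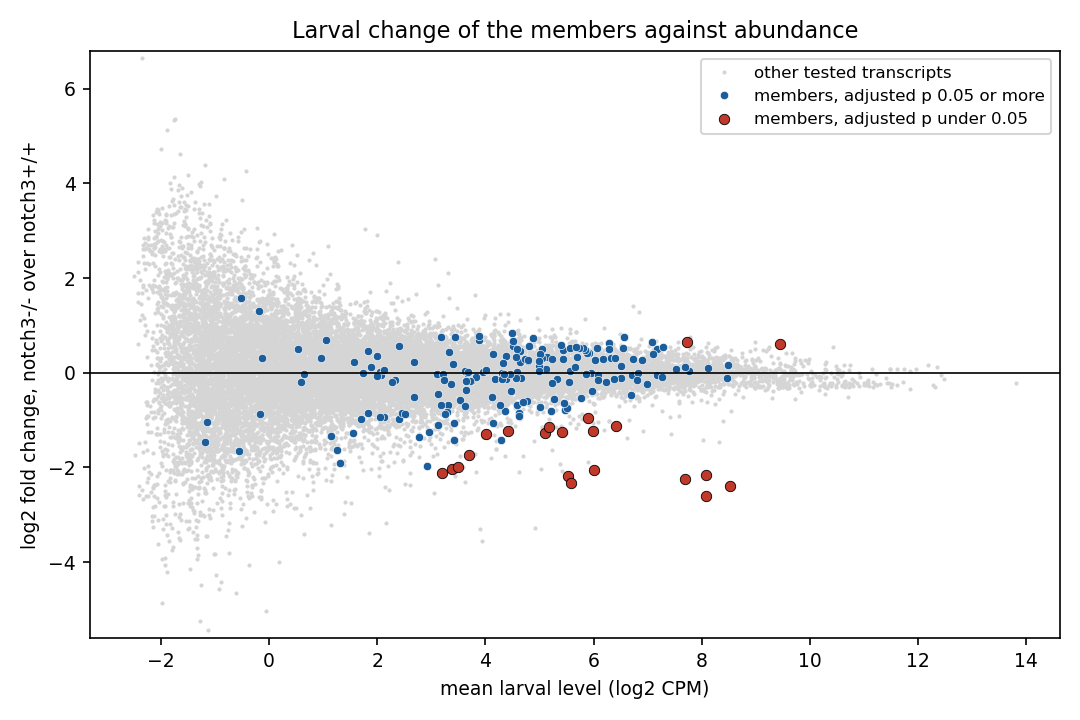
Log2 fold change between notch3-/- and notch3+/+ larval radial glia (vertical axis) against the mean larval level in log2 CPM (horizontal axis), 1 point per tested transcript, with the 197 members in blue and, where the adjusted p was under 0.05, in red. The 19 red points under 0 range from -2.60 to -0.96 and the 2 above 0 stand at 0.60 and 0.65, among the most abundant members.

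The 19 lower members fell in every pair. Their log2 fold changes ranged from -2.60 to -0.96 (median -1.99), with edgeR adjusted p between 2.92e-06 and 0.0376. All 19 were lower in each of the 3 pairs, and in 18 the genotypes did not overlap. Summed over the 19, the level was 994, 649 and 991 CPM in notch3-/- replicates 1, 2 and 3, against 4640, 3291 and 2902 CPM in notch3+/+ replicates 1, 2 and 3. The ratio of notch3-/- to notch3+/+ was 0.214, 0.197 and 0.342 in the 3 pairs. For the remaining 181 members, the ratio of the summed levels was 1.14, 0.964 and 1.17. As the 19 were singled out by this contrast over the same pairs, their agreement between pairs was favoured by that choice. These sums likewise describe the size of their change and do not test it.

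The 4 lower members with the highest notch3+/+ level carried most of that sum in each library except notch3-/- replicate 2. They had 648, 292 and 642 CPM in notch3-/- and 3530, 2144 and 2120 CPM in notch3+/+ replicates 1, 2 and 3. The other 15 summed to 346, 358 and 349 CPM in notch3-/- and to 1110, 1147 and 782 CPM in notch3+/+. In the adult, where the rule required higher levels in qRGs, the same 19 transcripts summed to 7435, 6166 and 5333 CPM in the qRG libraries, against 126 to 383 CPM in the aRG or aNP columns. The adult sums are given for their size only.

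ENSDART00000052556 changed most. It is a transcript of 4 exons and 1719 bp on chromosome 19 (Zv9, 22298344 to 22316769, minus strand), ranked 17 by gap. It had 129, 76.8 and 136 CPM in notch3-/- replicates 1, 2 and 3, against 888, 592 and 565 CPM in notch3+/+ replicates 1, 2 and 3. The adult values were 1060, 674 and 653 CPM in qRGs, against 15.5 to 52.1 CPM in the aRG or aNP columns. In CPM, which were scaled separately for adult and larva and not tested across them, the notch3+/+ larvae were near the qRG libraries. The notch3-/- larvae lay between these and the aRG or aNP columns. The log2 fold change was -2.60 ± 0.16 (SE, edgeR adjusted p = 2.92e-06), and it passed the threshold under each alternative, with an adjusted p between 5.10e-61 and 0.0353.

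ENSDART00000051533, of 8 exons and 1717 bp on chromosome 5 (Zv9, 24937056 to 24949033, minus strand), ranked 13 by gap. It had 197, 84.5 and 245 CPM in notch3-/- replicates 1, 2 and 3, against 1087, 754 and 713 CPM in notch3+/+ replicates 1, 2 and 3. In the adult it had 2299, 2021 and 1536 CPM in qRGs, against 10.1 to 96.0 CPM in the aRG or aNP columns. In these separately scaled CPM, both larval genotypes lay under the qRG libraries, and notch3-/- replicate 2 lay within the range of the aRG or aNP columns. The log2 fold change was -2.39 ± 0.22 (SE, edgeR adjusted p = 8.44e-05). It did not pass without the replicate block (adjusted p = 0.289) and passed under each other alternative, with an adjusted p of at most 0.000542. Per kilobase of transcript, the mean qRG level was 1137 CPM per kb for this transcript and 463 CPM per kb for ENSDART00000052556.

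The 2 higher members changed far less. ENSDART00000148960, of 10 exons and 8240 bp on chromosome 16 (Zv9, 31667957 to 31712330, minus strand), had 277, 210 and 317 CPM in notch3-/- replicates 1, 2 and 3, against 154, 164 and 187 CPM in notch3+/+ replicates 1, 2 and 3. In the adult it had 169, 183 and 229 CPM in qRGs, against 14.3 to 39.1 CPM in the aRG or aNP columns. The log2 fold change was 0.65 ± 0.13 (SE, edgeR adjusted p = 0.0491). This call is marginal, since it was lost with DESeq2 size factors (adjusted p = 0.0667), without replicate 1 (0.0520), without replicate 3 (0.103) and without the replicate block (0.9999). Under the other 4 alternatives the adjusted p lay between 0.000295 and 0.0354.

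ENSDART00000105615, of 5 exons and 2230 bp on chromosome 12 (Zv9, 27468003 to 27491023, minus strand), was the most abundant member in notch3-/- larvae. It had 845, 730 and 1014 CPM in notch3-/- replicates 1, 2 and 3, against 582, 519 and 591 CPM in notch3+/+ replicates 1, 2 and 3. In the adult it had 183, 295 and 369 CPM in qRGs, against 10.3 to 66.6 CPM in the aRG or aNP columns. Both larval genotypes lay above the qRGs in CPM, which were scaled separately for adult and larva. The log2 fold change was 0.60 ± 0.10 (SE, edgeR adjusted p = 0.0158). It was lost without replicate 3 (adjusted p = 0.0505) and without the replicate block (0.9999), and the adjusted p of the other alternatives lay between 8.19e-06 and 0.0468.

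**Figure D3:**
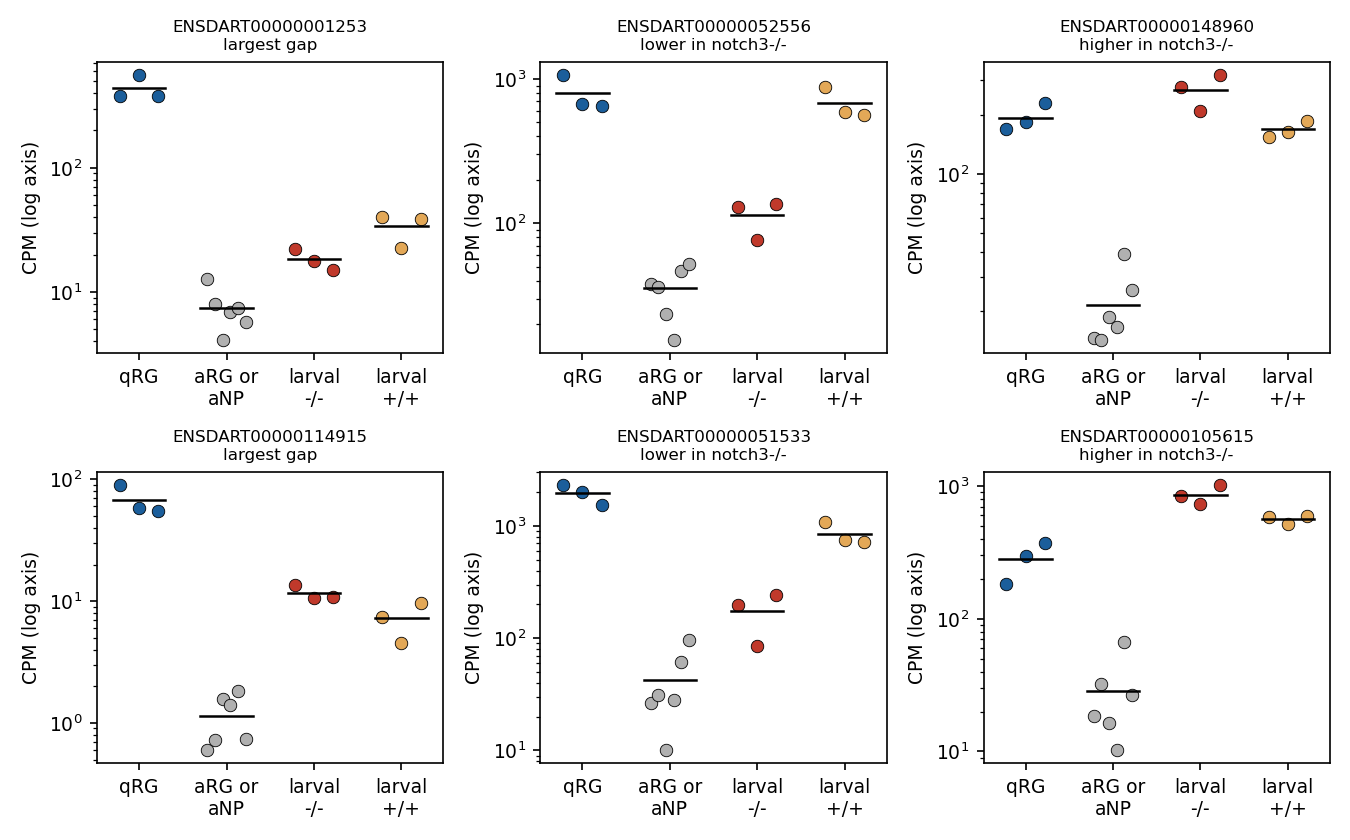
Level in CPM, on log axes that differ between panels, of the 6 transcripts given in full, 1 point per library and a line at the mean of each group, for adult qRGs, adult aRG or aNP, larval notch3-/- and larval notch3+/+. Adult and larval CPM were scaled separately. In the middle panels the notch3-/- libraries sit under the notch3+/+ libraries, and their means above the mean of the aRG or aNP columns. In the right panels the notch3-/- libraries sit above the notch3+/+ libraries.

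Most of the lower members were among those with the largest adult gap. When the list was split by falling gap into 4 sets of 50 members, 11, 6, 1 and 1 of them were lower in notch3-/-, and the 2 higher members stood in the first and second sets. The median log2 fold change of the first set was -0.52, and 34 of its 50 members had a value under 0. The medians of the other sets were 0.02, -0.02 and 0.01. Beyond the list, of the 560 tested transcripts with a smaller positive gap, 5 (0.893%) were lower and 2 higher, with a median of 0.06. Across the 197 members, gap and larval log2 fold change correlated with r = -0.298 and rho = -0.212, against -0.008 and 0.041 over the 10547 eligible transcripts tested. The sets also differed in abundance, with median larval levels of 43.4, 22.2, 24.0 and 16.1 CPM, and the part of abundance in the order of the calls was not tested.

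**Figure D4:**
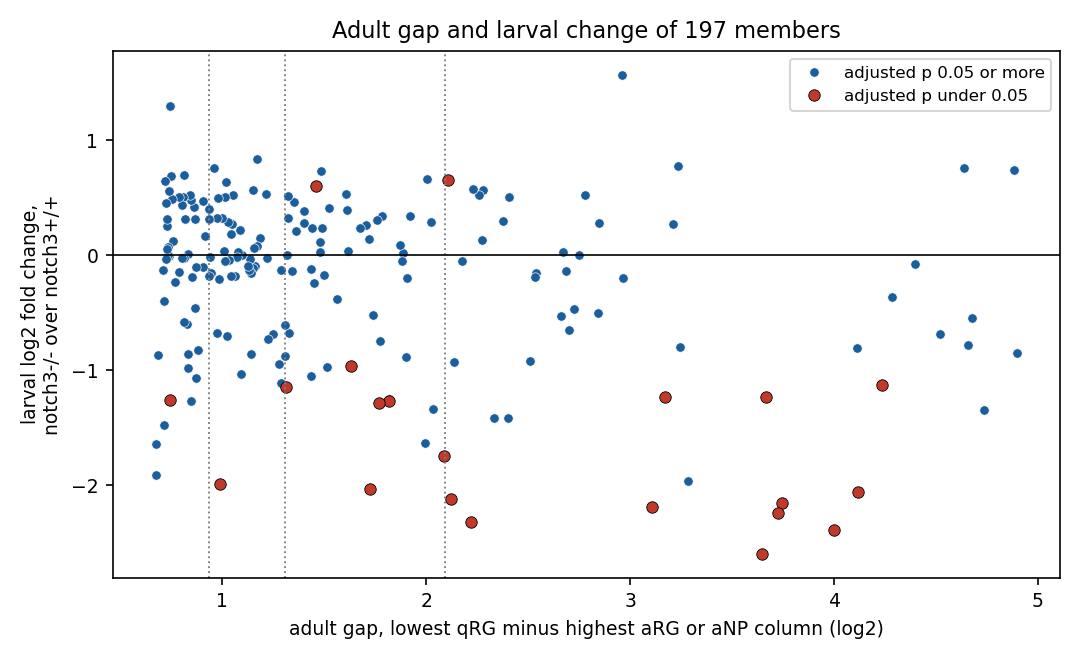
Larval log2 fold change (notch3-/- over notch3+/+, vertical axis) against the adult gap in log2 units (horizontal axis) for the 197 tested members, in red where the adjusted p was under 0.05, with dotted lines between the 4 sets of 50 members. The first set, right of the last dotted line, holds 11 of the 19 lower members.

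The members that went down and those that went up in the larva were set apart by direction alone, to see how they differed in the adult libraries. The 65 members lower in all 3 pairs had a median gap of 1.82, the 49 higher in all 3 pairs one of 1.32 and the 83 with mixed pairs one of 1.095. Their adult levels were alike in order of magnitude. The lower group had medians of 50.2, 52.5 and 40.2 CPM in qRG libraries 1, 2 and 3, against 5.41 to 7.24 CPM in the aRG or aNP columns. The higher group had medians of 35.8, 39.3 and 40.1 CPM in qRG libraries 1, 2 and 3, against 5.39 to 9.62 CPM in the aRG or aNP columns. For 23 of these 49, proliferative 2 was the highest of the 6 columns, against 9 of the 65 in the lower group. It was the highest for 25 of the 83 members with mixed pairs and for 57 of all 200 members. When the list was drawn without proliferative 2, it shared 150 transcripts with the 200. Of its 200 tested members, 48 were lower and 53 higher at an unadjusted edgeR p under 0.05. The main list had 55 lower and 30 higher of 197 tested, and all transcripts tested had shares of 4.48% and 3.4%. The larger number of lower than of higher members at an unadjusted p was thus not kept without this column. Each other list without 1 adult column kept it, with 50 lower and 17 higher without activatedNPC 1, and 51 and 35 without qRG 1. A longer list that reached smaller gaps, with all columns used, did not keep it either. There, 68 of 391 tested members were lower and 73 higher, so the excess of lower members also depended on the list length. After adjustment, 17 members of the list without proliferative 2 were lower and 4 higher.

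The qRG libraries themselves also ordered the groups differently. Library 3 was the lowest of the 3 qRG libraries for 39 of the 65 members lower in notch3-/- (60%), and library 1 for 8 of them (12.3%). In the group higher in notch3-/-, library 1 was the lowest for 29 of 49 members (59.2%) and library 3 for 13 (26.5%). Among the 83 members with mixed pairs, library 3 was the lowest for 44 (53.0%) and library 1 for 27 (32.5%), so that library 3 was often the lowest outside the lower group as well. The eligible transcripts showed the same order with lower shares, with library 3 the lowest in 51.0% of those lower in all 3 pairs library 1 in 50.8% of those higher, and library 3 in 42.6% of those with mixed pairs. Across the 197 members, the difference between qRG library 1 and library 3 correlated with the larval log2 fold change at rho = -0.368 (r = -0.303), and across the 10547 eligible transcripts tested at rho = -0.181 (r = -0.102). Each qRG library is 1 pool, and transcripts of the same libraries are not independent points. For the members, the rule also used these qRG values. As a description only, the 3 qRG libraries thus differed among themselves along with the larval change, in the members and outside them. What sets these libraries apart is not given by the labels and was not tested.

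**Figure D5:**
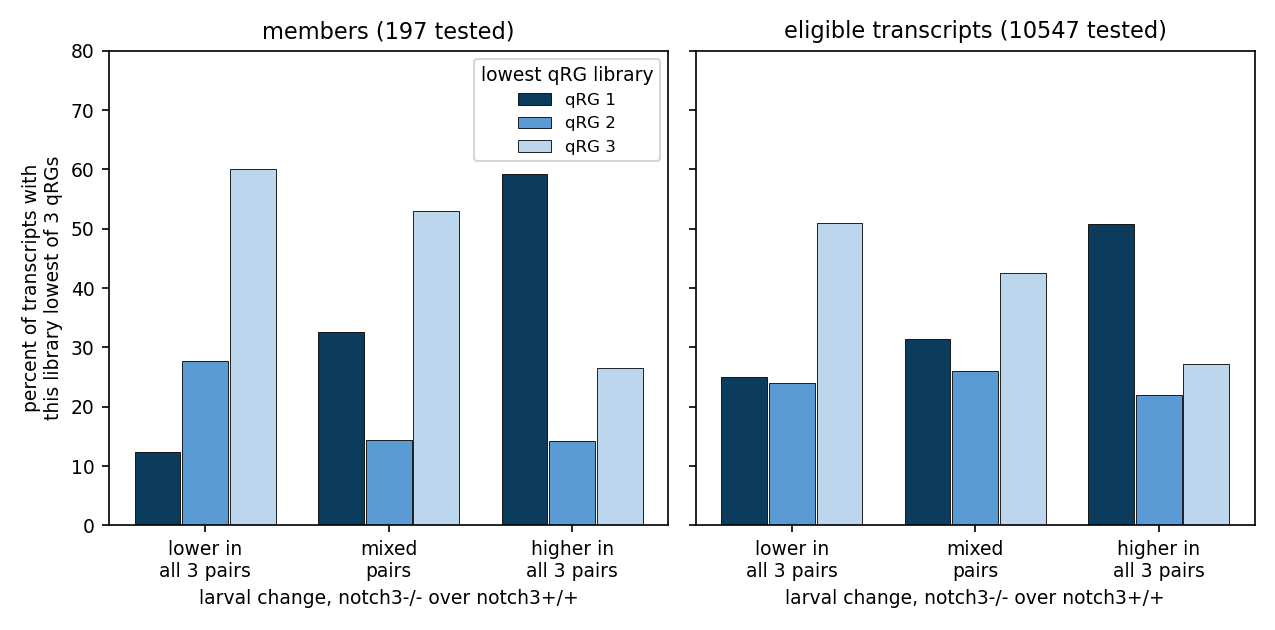
Percent of transcripts (vertical axis) for which qRG library 1, 2 or 3 had the lowest level of the 3, by direction of the larval change in the 3 pairs, for the members (left) and the eligible transcripts (right). Library 3 is most often the lowest among members that went down (60%) and among those with mixed pairs (53.0%), and library 1 among those that went up (59.2%).

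The rule used neither the size nor the position of the transcripts. Members had a median length of 2048 bp and 6 exons, against 2382 bp and 9 exons in the eligible transcripts. At most 5 exons were annotated for 92 members (46%, against 27.8%), and a single exon for 8 (4%, against 1.91%). Their genomic span had a median of 16979 bp, against 16866 bp. The members higher in all 3 larval pairs spanned a median of 28897 bp and those lower in all 3 pairs 12253 bp, and the exon medians were 5 in each group. Exons of 11 members (5.5%) overlapped those of another transcript, against 7.37% of the eligible transcripts, and reads there could not be split by strand. Among the 19 lower members, 1 had such an overlap.

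Members were spread over 25 chromosomes. Chromosome 3 held the most, 17 (8.5%, against 5.79% of the eligible transcripts), and 2 of its 15 tested members (13.3%) were lower in notch3-/-. Of all 1188 transcripts tested on chromosome 3, 18 (1.52%) were lower, against 0.373% of the transcripts tested on all chromosomes. The 19 lower members lay on 12 chromosomes. Another member within 100 kb was found for 20 members, of which 1 was a lower member. Of the 19 lower members, 17 lay off chromosome 3, and why the share of lower transcripts was higher on this chromosome was not tested.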

How the data were processed

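The authors aligned paired reads to Zv9 with TopHat2, kept unique alignments and deposited raw counts per Ensembl transcript. The header of the deposited tables names featureCounts 1.5.0, without options for read pairs or strand, whereas the methods name HTSeq, so mates were taken as counted singly. Counts were scaled by TMM in edgeR 4.0.16 (R 4.3.3). Larval genotypes were compared in the 6 larval libraries with edgeR's quasi-likelihood test, filterByExpr, the replicate number as a block and Benjamini-Hochberg adjustment (threshold 0.05). SE were derived from its F statistics. DESeq2 1.42.0 was an alternative, and GenomicRanges 1.54.1 gave exon overlaps.

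Pairs were formed by the replicate number in the sample titles. The study describes 3 independent experiments, or batches, for each genotype, and states that evident batch effects were corrected. The labels do not say that equal numbers of both genotypes come from the same experiment, so this was assumed. Deviations from the genotype means correlated within numbers at 0.227, 0.264 and 0.318 over all tested transcripts. Equal numbers can also share depth, since replicate 3 had the fewest reads in both genotypes (17776468 in notch3-/- and 17832652 in notch3+/+). These correlations therefore cannot show that equal numbers share an experiment.

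The members and the lists were chosen with earlier results of these data known. Transcripts given in full are the 2 with the largest gap and, per direction, the 2 with the largest absolute larval log2 fold change among members with adjusted p under 0.05 and a mean log2 CPM of at least 1. The planned marker lists (radial glia, activated progenitors, oligodendrocyte lineage, neurons, microglia, vessels, erythrocytes) were not applied, because the identifiers carry no gene names, and no sequences are shown. Other scalings, filters, tests and rule settings, and fits without each replicate, were tried, and the tests were tested on simulated data. The numbers of counted reads limit precision by counting error; the spread between libraries enters through the tests.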

Additional observations from a re-analysis of the deposited data

How the results depend on the processing

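The number of members called was 21 of 105 calls over all transcripts, and both numbers changed with the setting. It was 38 of 382 when only rows of 0 were filtered and 33 of 246 with a filter of 10 reads in total. It was 37 of 281 in DESeq2 with the replicate block. At an adjusted p under 0.01 it was 10 of 36, and with DESeq2 size factors 20 of 104. With no replicate block in edgeR it was 1. Over the fits without a larval replicate and the lists without an adult column, it ranged from 12 (without replicate 2) to 32 (without replicate 1). Those fits made 48 and 325 calls over all transcripts, in that order. Over the lists without an adult column alone, the number of members called ranged from 19 to 22. All 21 calls were kept without the filter, with 10 reads and in DESeq2, and 11 of them without replicate 2. The cause of these differences was not tested. The median log2 fold change of the members lay between -0.16 (the 100 largest gaps) and 0.07 (without proliferative 2, or without activatedNPC 3 and proliferative 2), so its sign is not settled. It moved by less than the spread of the 3 pairs (SD 0.13) in each alternative. Of the 200 members, the list of 100 shared 100 by construction, and lists without 1 adult column shared between 127 (without activatedNPC 1) and 200. The members called under these other lists, and the lists without activatedNPC 3 and proliferative 2 together, were added after the data had been seen. Of 48 further values, those of the 6 named transcripts under 8 alternatives, 39 stayed on their side of the threshold, 7 lost and 2 gained the call, and 0 changed sign. The members detected in larvae numbered 194, 197 and 183 at 1, 0.5 and 3 CPM, against 97.7%, 98.9% and 93.7% of the eligible transcripts.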
